A study of Mus musculus with 2 samples.

Results

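The Sp genes are a family of 9 zinc finger transcription factor genes, Sp1 to Sp9, and their transcripts were followed in E12.5 distal forelimbs of wild-type embryos and of embryos with an inversion on chromosome 2. Members were taken by gene symbol from the deposited table, which gave 9 of 23157 genes and 25 of 64053 transcripts. They were taken by name and no value entered this rule, but the family was chosen with earlier results of these data known. The study compared 1 wild-type library (labelled wtFL) with 1 library (labelled invDFL) from the allele HoxD Inv(TpSB1-Itga6), both of strain C57Bl6CBAF1, with RNA from 3 pairs of dissected forelimbs. The wild-type column of the table is headed wtDFL and was taken to be the library titled wtFL, so that every wild-type value rests on this match. In the inversion a 2.4 Mb segment between Itga6 and the HoxD cluster is turned around, and the methods of the study state that mutant tissue came from homozygous embryos. With 1 library per genotype no difference has a replicate check, and nothing separates the genotype from the embryos and dissection behind it. The 95% intervals speak for counting error alone, between 2 libraries and not between genotypes.

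Sp proteins bind GC-rich promoter elements, the GC boxes, through a run of zinc fingers near their C-terminus. Sp1 to Sp4 are widely expressed activators or repressors with long glutamine-rich regions, whereas Sp5 to Sp9 are shorter proteins with restricted expression. In the limb, Sp6, Sp8 and Sp9 are known from the surface ectoderm and the apical ectodermal ridge, the thickened rim that keeps the limb growing. Sp5 is a target of WNT signalling, and Sp7, also called osterix, is required for osteoblast differentiation. Sp3, Sp5 and Sp9 lie on chromosome 2, which also carries the HoxD cluster.

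The 3 members on chromosome 2 occupy different places relative to the inversion, on GRCm38 with the annotation GENCODE M21. Sp5 (chr2:70474923-70477729, plus strand) lies outside the segment, 1.27 Mb from Itga6. Sp3 (chr2:72936427-72980446, minus strand) and Sp9 (chr2:73271925-73284706, plus strand) lie between Itga6 and Atf2 and so within the segment, 1.08 and 1.41 Mb from Itga6. In the reference order Sp9 is 1.38 Mb and Sp3 is 1.69 Mb from Hoxd13. The other members form pairs of neighbours, Sp1 with Sp7 on chromosome 15 (39.0 kb apart), Sp2 with Sp6 on chromosome 11 (30.4 kb apart) and Sp4 with Sp8 on chromosome 12 (544.9 kb apart).

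The promoters of the chromosome 2 members are shown because these genes share a chromosome with the rearrangement, and that of Sp8 because it is the ectodermal relative of Sp9. Each runs from 250 bases before to 50 bases after a RefSeq start on GRCm38.p6, and capitals mark the GC box GGGCGG and the TCF/LEF core CTTTGA on either strand, which did not overlap each other. The Sp5 promoter is chr2:70474673-70474972 (plus strand), that of Sp9 is chr2:73271676-73271975 (plus strand), that of Sp3 is chr2:72980397-72980696 (minus strand) and that of Sp8 is chr12:118846079-118846378 (plus strand). For Sp3 and Sp8, which have 2 and 3 promoters in the table, the one shown belongs to the start of the transcript with the highest mean.
Sp5: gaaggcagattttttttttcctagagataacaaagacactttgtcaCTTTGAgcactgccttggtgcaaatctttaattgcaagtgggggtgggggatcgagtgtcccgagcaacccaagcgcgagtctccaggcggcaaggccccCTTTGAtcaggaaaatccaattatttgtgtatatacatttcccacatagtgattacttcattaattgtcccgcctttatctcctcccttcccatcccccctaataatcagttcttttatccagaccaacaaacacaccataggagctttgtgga
Sp9: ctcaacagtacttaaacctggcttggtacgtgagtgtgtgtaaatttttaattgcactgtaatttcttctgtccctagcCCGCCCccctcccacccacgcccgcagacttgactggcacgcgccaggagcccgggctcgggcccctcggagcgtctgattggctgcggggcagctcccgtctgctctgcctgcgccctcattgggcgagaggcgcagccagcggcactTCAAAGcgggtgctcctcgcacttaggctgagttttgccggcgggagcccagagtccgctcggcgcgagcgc
Sp3: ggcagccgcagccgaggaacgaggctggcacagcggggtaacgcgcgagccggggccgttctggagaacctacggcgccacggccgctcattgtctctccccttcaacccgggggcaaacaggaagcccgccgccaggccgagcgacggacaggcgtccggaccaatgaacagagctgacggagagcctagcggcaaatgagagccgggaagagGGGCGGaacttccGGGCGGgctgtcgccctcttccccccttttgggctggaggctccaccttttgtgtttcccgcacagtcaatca
Sp8: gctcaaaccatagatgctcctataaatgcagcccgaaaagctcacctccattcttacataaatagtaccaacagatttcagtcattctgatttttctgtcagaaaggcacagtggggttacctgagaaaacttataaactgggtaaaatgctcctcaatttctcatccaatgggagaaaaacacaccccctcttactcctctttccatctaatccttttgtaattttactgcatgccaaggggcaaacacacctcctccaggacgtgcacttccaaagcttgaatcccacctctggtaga
The Sp5 promoter held 2 TCF/LEF cores, starting at positions -204 and -104 from the start site, and no GC box. The Sp9 promoter held 1 GC box at -171 and 1 TCF/LEF core at -22, and the Sp3 promoter held 2 GC boxes at -36 and -23. Neither motif was in the Sp8 window shown, whereas another Sp8 promoter (chr12:118846983-118847282) held a GC box at -14 and a TCF/LEF core at -50. The other Sp3 promoter (chr2:72979232-72979531) held 5 GC boxes. The table held 12 promoters for 7 of the members, of which 7 had a GC box and 3 a TCF/LEF core, while 35.7% of all 32851 promoters of this length had a GC box and 16.0% a TCF/LEF core. These matches are letters in a window and were not tied to any measured binding.

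Levels of the genes were compared per length, as normalized reads per kb of the transcript with the highest mean (the authors had scaled the reads by 1 factor per library, and these were then divided by transcript length). Sp1 was at 229 normalized reads per kb in the wild-type library (95% Poisson interval 219 to 240), above 87.6% of the 20652 genes with a known length. Sp4 followed with 144 (134 to 154), Sp3 with 101 (91.1 to 111) and Sp2 with 58.7 (50.3 to 68.0). These 4 widely expressed members stood at the top of the order. Sp9 was at 47.8 (41.6 to 54.6), Sp8 at 39.1 (33.5 to 45.4) and Sp7 at 19.0 (14.4 to 24.5) normalized reads per kb. Sp5 was at 6.27 (3.34 to 10.7) and Sp6 at 0.285 (0.0072 to 1.59). In wild type the intervals of the neighbours Sp2 and Sp9 overlapped, as did those of Sp9 and Sp8, and no other neighbours in the order overlapped.

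In the inversion library the order of levels per kb differed at Sp9 and Sp7. Sp9 stood at 79.0 normalized reads per kb (71.0 to 87.6), between Sp3 at 96.8 (87.7 to 107) and Sp2 at 57.9 (49.7 to 67.0), with no overlap on either side. Sp7 stood at 47.2 (39.9 to 55.4), above Sp8 at 37.3 (31.9 to 43.3), and its interval overlapped those of Sp2 and Sp8. The level of a gene with several transcripts, such as Sp2 or Sp3, is understated on this scale if its reads were divided among them. The Sp2 transcript used here held 29.4% of the inversion reads listed for Sp2. Summed over transcripts, Sp2 had 600 normalized reads in this library and Sp9 357. The place of Sp9 above Sp2 may thus rest on the choice of transcript.

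**Figure D1:**
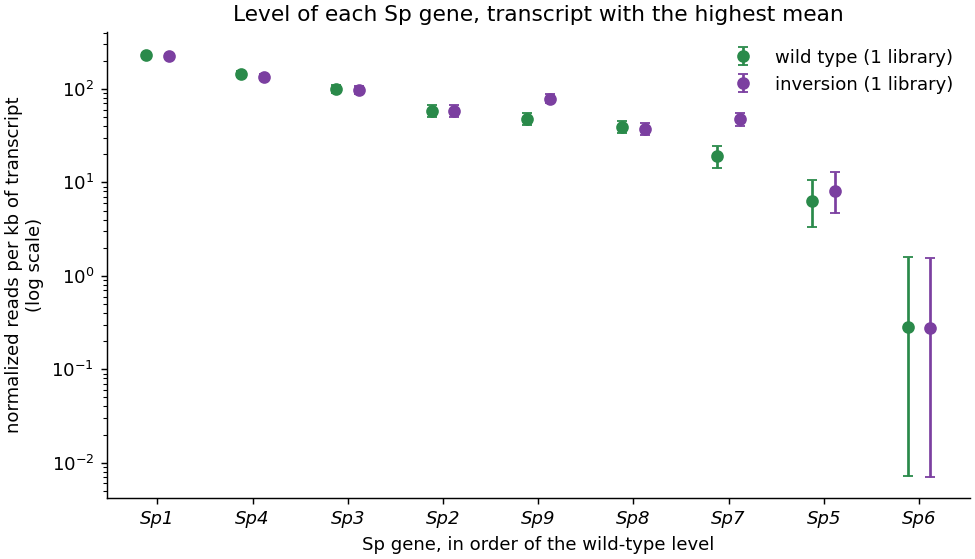
Normalized reads per kb of the transcript with the highest mean (log axis) for the 9 Sp genes, in order of the wild-type level, with green points for the wild-type library, purple points for the inversion library and bars for 95% Poisson intervals. Points of both libraries lie close together except for Sp9 (47.8 and 79.0) and Sp7 (19.0 and 47.2).

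Of the 9 members, 8 had a mean of at least 10 normalized reads and were compared between the libraries, and Sp6 was not. Log2 ratios (inversion to wild type) were taken on the sum of a gene's transcripts with a pseudocount of 1, which understates differences of genes with few reads. Among these 8, Sp7 passed a 2-fold difference toward the inversion (1 of 8, against 3.99% of the 16756 genes tested) and 0 were 2-fold lower (against 0.483%). The 95% interval lay above 0 for 2 of 8, Sp7 and Sp9, against 16.7% of all genes tested, and below 0 for 0 of 8, against 13.0%. The same 2 members were higher by an exact binomial test of the 2 libraries, as were 12.3% of all genes tested, and 0 of 8 were lower, against 7.87%. This test uses the same reads as the interval and adds no separate support. The intervals of the remaining 6 members included 0, as did those of 11782 of the 16756 genes tested. An interval that includes 0 does not show equal levels, and that of Sp5 was wide (-0.78 to 1.51). The median log2 ratio of the 8 was -0.01 beside -0.02 for all genes tested. Summed over the 9 members, normalized reads came to 6012 (wild type) and 6081 (inversion).

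The wild-type library held 216 normalized reads of Sp9 and the inversion library 357, from 213 and 361 reads. The log2 ratio was 0.72 (95% interval 0.48 to 0.98), a ratio of 1.65, and 6.96% of genes tested had a higher one. All reads of Sp9 belonged to 1 protein-coding transcript, ENSMUST00000090813, so that no division of reads among isoforms enters this value. In the annotation used here a longer Sp9 transcript reaches into Cir1 on the opposite strand, but the transcript in the table ends before it. Cir1 had 168 and 152 normalized reads and a log2 ratio of -0.14 (95% interval -0.47 to 0.18).

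Sp3, the Sp gene nearest to Sp9, encodes a widely expressed factor that binds the same GC boxes as Sp1. Its normalized reads were 1738 and 1677 (wild type, then inversion), with a log2 ratio of -0.05 (95% interval -0.15 to 0.05). Its 6 transcripts had log2 ratios from -0.08 to 0.25. The 4 most abundant lay between -0.08 and -0.05, and the highest ratio belonged to a processed transcript with 44 and 54 reads. A 1700011J10Rik transcript lies antisense across the Sp3 start and had 82 and 112 reads (log2 ratio 0.41, 95% interval -0.01 to 0.84). Libraries were stranded, but whether the assignment to transcripts used the strand is not given in the sources used here.

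Sp5, outside the segment, was at 13.2 and 16.8 normalized reads, from 13 and 17 reads. Its log2 ratio of 0.33 had a 95% interval from -0.78 to 1.51, so that neither equality nor a difference of 2-fold could be told at this depth. The 3 chromosome 2 members thus had log2 ratios of -0.05 (Sp3), 0.33 (Sp5) and 0.72 (Sp9), with a median of 0.33 that is the value of Sp5. The other 5 compared members had log2 ratios from -0.11 (Sp4) to 1.25 (Sp7) and a median of -0.01. Each set held 1 member with an interval above 0, and the ranges of the 2 sets overlapped. A shared shift of the chromosome 2 members was not seen, as Sp3 and Sp9 lie 0.29 Mb apart and differed. Relative to Sp3, the ratio of Sp9 was 1.71-fold larger (exact 95% interval 1.37 to 2.15, transcripts with the highest mean).

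**Figure D2:**
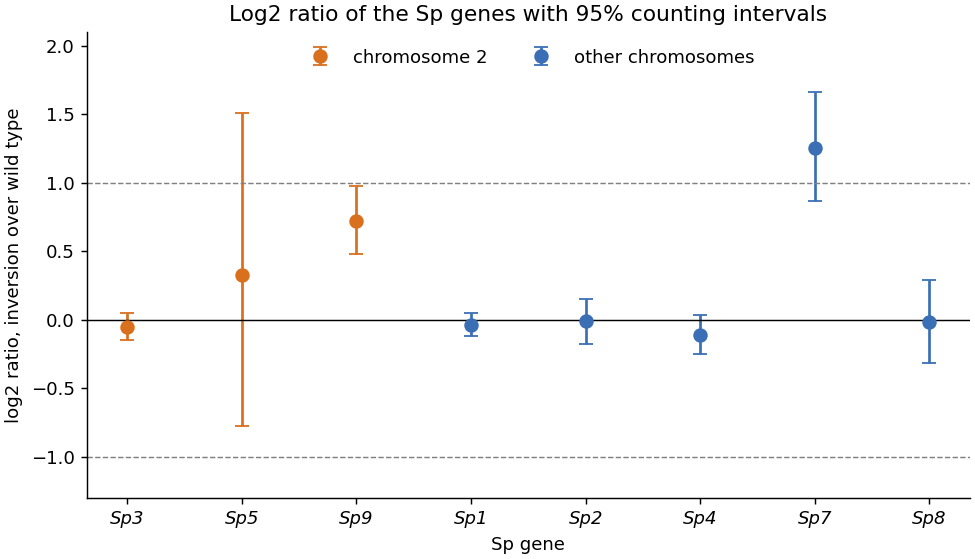
Log2 ratio (inversion to wild type, 1 library each) for the 8 Sp genes that passed the filter, in orange for chromosome 2 and in blue for the other chromosomes, with bars for 95% counting intervals and dashed lines at a 2-fold difference. Sp9 (0.72) and Sp7 (1.25) have intervals above 0, and the interval of Sp5 is the widest, from -0.78 to 1.51.

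Genes next to Sp9 on the chromosome did not show its difference. Ola1, on the side of Itga6, had 887 and 738 normalized reads (log2 ratio -0.27, 95% interval -0.41 to -0.12), and Scrn3, on the side of Atf2, had 497 and 460 (-0.11, -0.30 to 0.07). Between Itga6 and Atf2, 19 genes were tested with a median log2 ratio of -0.01, and Sp9 had the third highest ratio and Sp3 the thirteenth. The 2 genes above Sp9, named after their values were seen, were Chrna1, a muscle acetylcholine receptor subunit gene (0.94), and Gm13704 (0.74). Both lie between Sp9 and Atf2. On the outer side of Itga6, Sp5 is 1.05 Mb from Dlx1, which had 217 and 845 normalized reads. Over all members, 6 adjacent genes that are not Sp genes and overlap no member were tested, with log2 ratios from -0.27 (Ola1) to 0.27 (Dnahc11). Of these 6, 0 differed 2-fold, beside 3.99% of all genes tested 2-fold higher and 0.483% 2-fold lower. With shares this small, the count is no result about the neighbours. Tested genes that overlap a member were not counted here, with log2 ratios from -0.14 (Cir1) to 0.41 (1700011J10Rik).

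**Figure D3:**
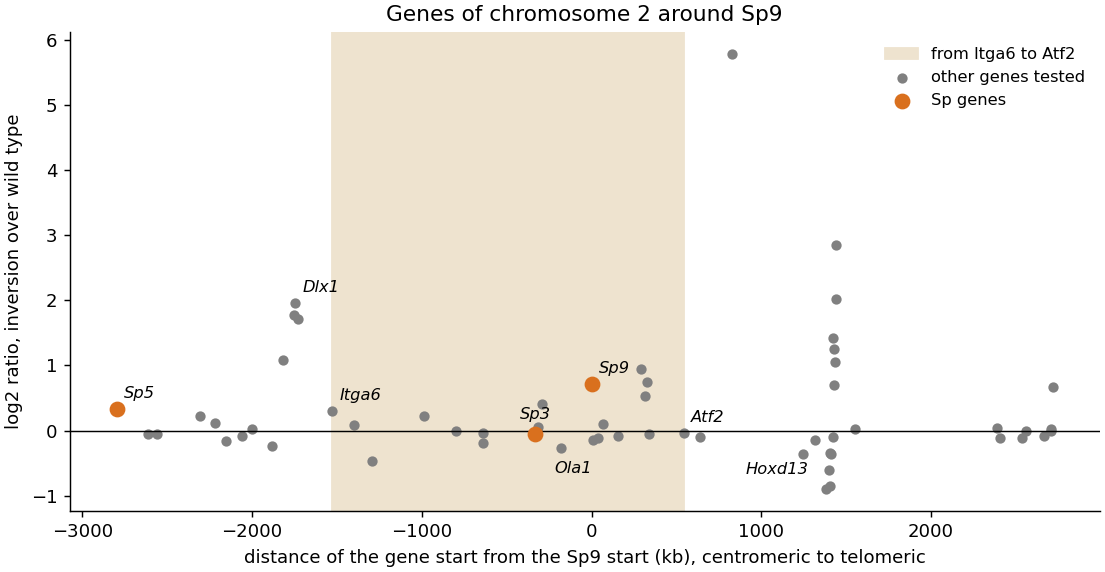
Log2 ratio (inversion to wild type) for genes of chromosome 2 against the distance of their start from the Sp9 start in kb, with Sp genes in orange, other genes tested in grey and the stretch from Itga6 to Atf2 shaded. Sp9 (0.72) stands above Ola1 (-0.27) beside it and above Sp3 (-0.05), while Sp5 (0.33) lies at the left end, outside the shaded stretch.

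Sp7 was the member with the largest difference. Its normalized reads were 77.0 (wild type) and 185 (inversion), from 76 and 187 reads. The log2 ratio was 1.25 (95% interval 0.87 to 1.67), a ratio of 2.40, and 2.53% of genes tested had a higher one. Both of its transcripts were higher, ENSMUST00000078508 with 58 and 148 reads (log2 ratio 1.30, 95% interval 0.87 to 1.78) and ENSMUST00000165516 with 18 and 39 reads (1.04, with a lower bound of 0.24). The latter had no match in the annotation, so whether the 2 transcripts share exons was not checked. If reads were counted in both, they are not separate evidence and the interval of the sum is too narrow. Its neighbour Sp1 did not differ with it. Sp1 had 2353 and 2297 normalized reads and a log2 ratio of -0.03 (95% interval -0.12 to 0.05), and Aaas on the other side had 1205 and 1114 (-0.11, -0.23 to 0.01). Relative to Sp1, the ratio of Sp7 was 2.55-fold larger (exact 95% interval 1.86 to 3.54, transcripts with the highest mean).

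Among the other widely expressed members, Sp4, which is best known from the nervous system, was at 820 and 760 normalized reads (log2 ratio -0.11, 95% interval -0.25 to 0.04) from a single transcript. Sp2 had 606 and 600 normalized reads (log2 ratio -0.01, 95% interval -0.18 to 0.15). Summed over transcripts, the intervals of Sp1, Sp2, Sp3 and Sp4 each included 0 and left room for differences of at most 0.25 on the log2 scale in either direction. Sp1, Sp2 and Sp3 have transcripts that share exons. The Sp2 transcripts ENSMUST00000107623 and ENSMUST00000107624 share 2829 exonic bases (97.3% and 92.6% of their lengths) and had 173 and 177 wild-type reads and 178 and 179 inversion reads. Whether shared reads were counted in both or divided is not given in the sources used here, and if they were counted in both, the intervals of summed genes are too narrow. With the transcript of the highest mean alone, the intervals were -0.33 to 0.29 for Sp2, -0.25 to 0.15 for Sp3 and -0.13 to 0.06 for Sp1.

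Sp8, the other ectodermal member with enough reads, did not differ with Sp9. The gene is needed for a normal apical ectodermal ridge and was at 187 and 186 normalized reads (log2 ratio -0.01, 95% interval -0.31 to 0.29). Its main transcript had 173 and 169 reads (-0.07) and a minor one 12 and 19 reads (0.59, with a lower bound of -0.49). Relative to Sp8, the ratio of Sp9 was 1.73-fold larger (exact 95% interval 1.31 to 2.30, transcripts with the highest mean), and the main transcripts stood at 1.23 (wild type) and 2.14 (inversion) Sp9 reads per Sp8 read. These relations between members were chosen after their values were seen. Sp6 had 2 reads in each library, 1 for each of its 2 transcripts, which share 93.8% and 91.9% of their exonic bases, so that the same read may have been listed for both. No fold is given for Sp6.

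**Figure D4:**
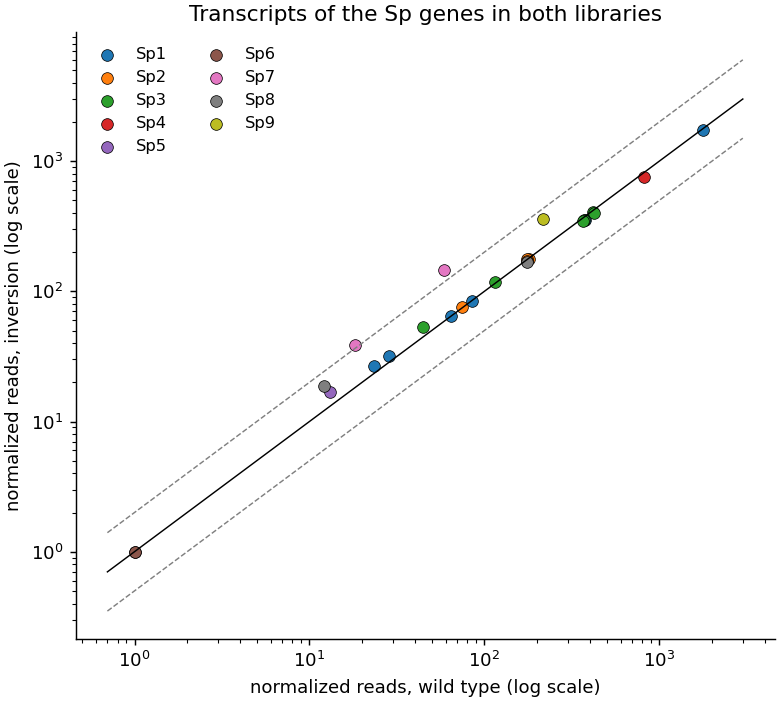
Normalized reads of the 25 transcripts of the Sp genes in the inversion library against the wild-type library (both axes log, colours by gene), with a solid line for equal levels and dashed lines for a 2-fold difference. The 2 Sp7 transcripts and the single Sp9 transcript lie above the solid line, and the other 22 have log2 ratios from -0.11 to 0.59.

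Both libraries carried the markers of distal limb mesenchyme, with 3906 and 3864 normalized reads of the limb mesenchyme gene Prrx1 and 1098 and 1193 of the autopod gene Hoxa13. Of the 7 genes of that list, 5 were lower and 2 higher (median log2 ratio -0.09), beside 46.6% of all genes tested that were higher. Intervals lay below 0 for 3, Hoxd13 (-0.61), Lhx2 (-0.43) and Msx1 (-0.22), and above 0 for 1, Hoxa13 (0.12). These were 3 of 7 and 1 of 7, beside 13.0% and 16.7% of all genes tested. The study reports reduced Hoxd13 transcripts in this inversion, also by RT-qPCR, so this gene is no clean marker of mesenchyme content here. In such bulk RNA, fewer cells of a type and less RNA per cell cannot be told apart. The 4 Y-linked genes Ddx3y, Eif2s3y, Kdm5d and Uty summed to 836 and 2785 normalized reads, a ratio of 3.33, so the sex makeup of the embryos and the genotype cannot be told apart for any member.

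Markers of the cells in which Sp8 and Sp9 are known were lower in the inversion library, whereas Sp9 was higher. All 12 genes of the limb ectoderm list were lower (median log2 ratio -0.24), against 8947 of the 16756 genes tested. An interval below 0 was found for 10 of the 12, against 13.0% of all genes tested. The basal keratin genes Krt5 (1750 and 1501 normalized reads) and Krt14 (954 and 806) and the epithelial cadherin gene Cdh1 (817 and 707) were the most abundant. Of the 12, 0 differed 2-fold, beside 3.99% of all genes tested 2-fold higher and 0.483% 2-fold lower. Summed over the list, normalized reads came to 6951 and 5849. Per 1000 normalized reads of this list, Sp9 had 31.0 in the wild-type library and 60.9 in that of the inversion, and Sp8 had 26.9 and 31.7. These values have no interval and depend on the list. The ratio of its summed reads was 0.84, beside 0.91 for the ridge list below. Krt5 alone held 1750 of its 6951 wild-type reads.

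Of the 11 genes of the apical ectodermal ridge list, 9 were tested, of which 8 were lower and 1, En1, was higher (median log2 ratio -0.15). Among all genes tested, 8947 of 16756 were lower. The epithelial stem cell factor gene Trp63 had 959 and 889 normalized reads, Msx2 had 846 and 811, and Dlx5 had 353 and 305. None of the 9 differed 2-fold, beside 3.99% of all genes tested 2-fold higher and 0.483% 2-fold lower. Dlx6 (264 and 178 normalized reads, log2 ratio -0.57, 95% interval -0.85 to -0.29) and the WNT agonist gene Rspo2 (-0.40, -0.81 to -0.01) had intervals below 0, and the interval of the ventral ectoderm gene En1 began just above 0 (0.34, 0.00 to 0.68). These were 2 of 9 and 1 of 9, beside 13.0% and 16.7% of all genes tested. Fgf8, the ridge growth factor gene placed downstream of Sp6 and Sp8, had 64 and 58 reads (-0.18, 95% interval -0.72 to 0.36). Fgf17 with 5 reads in each library and Fgf4 with 1 and 3 were too low to compare.

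Of the 12 genes of the WNT target list, the pathway Sp5 is known from, 5 were higher and 7 lower (median log2 ratio -0.03). Among all genes tested, 46.6% were higher. Past 2-fold were 0 of 12, beside 3.99% of all genes tested higher and 0.483% lower. The feedback inhibitor genes Nkd2 (1684 and 1700 normalized reads) and Axin2 (1658 and 1599) and the cyclin gene Ccnd1 (1604 and 1468) were the most abundant. Lgr5 (132 and 244 normalized reads, log2 ratio 0.88, 95% interval 0.58 to 1.21) and Notum (0.51, 0.14 to 0.90) had intervals above 0, and Ccnd1 had one below 0 (-0.13, -0.23 to -0.03). These shares, 2 of 12 and 1 of 12, stood beside 16.7% and 13.0% of all genes tested, and are thus no result about the list.

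Bone genes were mostly higher in the same library as Sp7. Of the 12 genes of the osteoblast list, 10 were in the table by symbol and 8 were tested, of which 7 were higher and 1 lower (median log2 ratio 0.60). Among all genes tested, 46.6% were higher. Col1a2 (9912 and 11665 normalized reads) and Col1a1 (3355 and 5451), the chains of type I collagen, were the most abundant, followed by the matrix gene Sparc (2612 and 2528, log2 ratio -0.05). Phex, an endopeptidase gene of bone and tooth, was past 2-fold with 48 and 100 normalized reads (log2 ratio 1.05, 95% interval 0.55 to 1.60), which is 1 of 8 tested against 3.99% of all genes. Runx2, the osteoblast factor gene that acts upstream of Sp7, was at 266 and 502 normalized reads (log2 ratio 0.91, 95% interval 0.70 to 1.13). The late osteoblast genes Bglap, with 2 reads and 1 read, and Dmp1, with 2 and 9 reads, were below the filter. Intervals lay above 0 for 5 of the 8, against 16.7% of all genes tested, and below 0 for 0. Of 6 cartilage genes, 4 were higher and 2 lower (median 0.22), beside the same 46.6% of all genes tested that were higher. The matrix genes Matn1 (101 and 327 normalized reads, log2 ratio 1.68), Acan (0.87) and Col2a1 (0.37) had intervals above 0, the transcription factor gene Sox6 (-0.24) had one below 0, and those of Sox9 (-0.09) and Sox5 (0.07) included 0. These were 3 of 6 above 0 and 1 of 6 below 0, against 16.7% and 13.0% of all genes tested. Matn1 alone was past 2-fold, 1 of 6 against 3.99%. Per 1000 normalized reads, Sp7 had 4.66 and 8.93 relative to the osteoblast list and 6.42 and 13.1 relative to the cartilage list. These sums rest largely on a few abundant genes. In wild type, Col1a2 held 9912 of 16503 normalized reads of the osteoblast list and Col2a1 6375 of 11994 of the cartilage list. The highest log2 ratio of a tested gene was 1.05 (Phex) in the first list and 1.68 (Matn1) in the second, beside 1.25 for Sp7. The part of skeletal cell number in the Sp7 value was not tested.

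**Figure D5:**
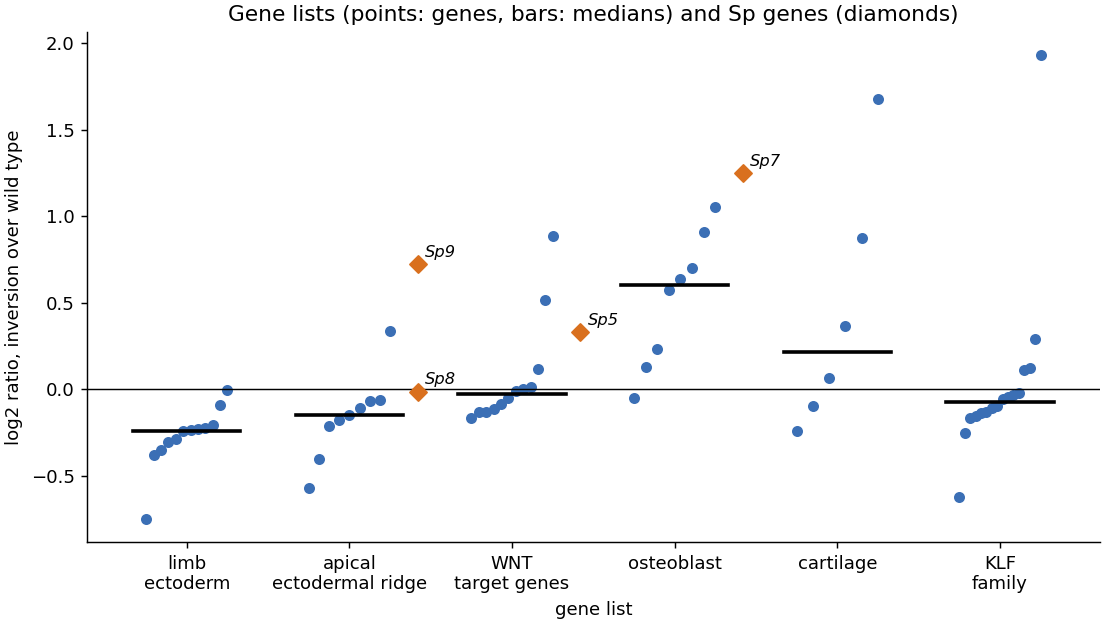
Log2 ratio (inversion to wild type) for the tested genes of 6 lists (points, with bars for the medians) and for Sp9, Sp8, Sp5 and Sp7 (diamonds, beside the list of the tissue or pathway they are known from). Sp9 (0.72) lies above every ridge and ectoderm gene, while Sp7 (1.25) lies above all osteoblast genes, whose median was 0.60.

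The KLF family, whose zinc fingers are related to those of the Sp proteins, served for comparison. Of 17 genes, 16 were tested, 4 were higher and 12 lower, beside 46.6% of all genes tested that were higher. The median log2 ratio was -0.07. Klf13 (976 and 962 normalized reads), Klf12 (976 and 915) and Klf10 (521 and 568) were the most abundant. Klf14 was at least 2-fold higher (1 of 16, against 3.99% of all genes), with 9 and 38 reads and a log2 ratio of 1.93 (95% interval 0.97 to 3.28). The intervals of the other 15 included 0. Intervals thus lay above 0 for 1 of 16 and below 0 for 0, beside 16.7% and 13.0% of all genes tested. Among the remaining cell types, 5 of 6 muscle genes had a higher value (median 0.59), 3 of them with an interval above 0, beside 46.6% of all genes tested with a higher value and 16.7% with such an interval. Of 4 endothelial genes, 4 had a lower value (median -0.10), and of 4 red cell genes, 3 (median -0.18), beside 8947 of the 16756 genes tested. Each of these lists had 1 interval below 0, beside 13.0% of all genes. Of 8 forebrain genes, where Sp8 and Sp9 are also known, 2 passed the filter, both lower, and Gad2 had 1 and 0 reads.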

How the data were processed

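Stranded poly(A)-selected libraries were sequenced as single-end reads, which the authors mapped to NCBIM37 (mm9) and assigned to transcripts with the HTSstation pipeline. The submitters' processing notes name Bowtie2. The deposited table holds, as signal, each transcript's reads scaled by the authors with 1 size factor per library, 0.5 where there were none. Its fold change, log2 fold change and p-value columns are the authors' comparison and were not used. Values above 0.5 were whole multiples of 1 step per library for 100% of values (within 0.0051 plus 2e-06 of the value), giving totals of 9280660 (wild type) and 9466154 reads (inversion).

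Transcripts were summed by symbol and chromosome. Log2 ratios used a pseudocount of 1 and genes with a mean of at least 10. Intervals come from the share of a gene's reads in the inversion library (exact Clopper-Pearson, without the pseudocount). Members, lists and named genes (all members, adjacent genes, and the 3 most abundant and the 2-fold genes of the ridge, ectoderm, WNT, osteoblast and KLF lists) were chosen with earlier results of these data known. Any other gene named falls outside that rule and was chosen after its values were seen. Positions, types and lengths come from GENCODE M21 (GRCm38), another build, by transcript identifier (88.1% matched, and 19 of the 25 Sp transcripts). No coordinate was converted. The calculations were tested on simulated data. The tools were scipy 1.17.1, numpy 2.4.6, pandas 2.3.3, Python 3.11.15 and, for plots, matplotlib 3.10.9.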

Additional observations from a re-analysis of the deposited data

How the results depend on the processing

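No paired analysis was possible because each genotype has 1 library, and no alternative can replace replicates. Across other scalings, pseudocounts and transcript choices, each of 48 values of single Sp genes kept its direction and stayed within its counting interval, Sp9 between 0.70 and 0.73 and Sp7 between 1.21 and 1.30. Much of this was fixed in advance. The scalings moved all genes by about the same amount (0.0075 or -0.0179 on the log2 scale), and a pseudocount cannot reverse a sign. Sp4, Sp5 and Sp9 have 1 transcript each, so the transcript choices left them unchanged. The median of the chromosome 2 members ranged from 0.26 to 0.35 and that of the others from -0.04 to -0.01. Of 95 recomputed list medians, 0 changed sign. With protein-coding transcripts only, the cartilage median was 0.13 (against 0.22) and that of the forebrain list -0.24 (against -0.36), the value of its 1 gene left.

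The background counts of genes at least 2-fold changed, 668 higher and 81 lower, depended on the filter and the threshold. They were 1992 and 1089 without the filter, 139 and 12 for genes whose mean reached 100, 1577 and 341 at 1.5-fold, and 113 and 13 at 4-fold. With protein-coding transcripts only, 412 were higher and 110 lower, so that 78.9% of the changed genes were higher against 89.2%. This share was 64.7% without the filter. The exact binomial test of whole reads, which compares the 2 libraries and not the genotypes, called 2068 genes higher and 1318 lower at an adjusted p under 0.05 (Benjamini-Hochberg), 12.3% and 7.87% of genes tested, and of the members only Sp7 and Sp9. Depth limits Sp5 and Sp6.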
